A study of Mus musculus with 15 samples.

Results

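The genes described here are 10 mouse genes of the ATF4 branch of the integrated stress response, namely Atf4, Atf3, Atf5, Ddit3, Ddit4, Trib3, Chac1, Asns, Sesn2 and Cebpb. They were chosen by symbol, with earlier results of these data known, and each matched 1 of the 53380 features counted in every library. They were measured in mouse T-ALL cells, a T cell acute lymphoblastic leukemia line grown in culture and derived from the EμSRα-tTA/tet-O-MYC mouse. In these cells a tetracycline transactivator, driven by the EμSRα promoter and enhancer in lymphoid cells, keeps a human MYC transgene on until doxycycline is added. The groups were MYC on at 0 h and MYC off at 2, 4, 8 and 24 h of doxycycline, each time with 3 libraries (15 in total), and every group carries the transgene. Nothing in the labels says that libraries of 1 time come from separate cultures, so the p-values measure the spread between these libraries, which may be technical. There was no series of untreated cells collected at the later times, so the time in culture and the loss of MYC cannot be told apart.

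The integrated stress response is a shared answer of cells to amino acid shortage, endoplasmic reticulum stress, heme shortage and double-stranded RNA. Kinases that sense these conditions phosphorylate the translation factor eIF2 on its alpha subunit, which slows protein synthesis in general and favors translation of a few mRNAs, among them that of Atf4. ATF4 is a bZIP transcription factor that binds with C/EBP proteins and turns on genes for amino acid supply, tRNA charging and stress handling. Since ATF4 protein is set largely at translation, the level of Atf4 mRNA is not a measure of ATF4 activity, and neither ATF4 protein nor eIF2 phosphorylation was measured here. In T-ALL the pathway is known for Asns, because leukemic lymphoblasts with little asparagine synthetase depend on asparagine from outside.

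The 10 genes did not move as a block once MYC was off. Atf4, Atf5 and Asns fell, Ddit4 and Ddit3 rose, and Trib3 and Chac1 were higher at 2 h and were not called at later times. Sesn2 and Cebpb were not called at any time, and Atf3 was too low to test.

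The MYC transgene itself, the check of the labels, held 1975 to 2079 CPM (counts scaled to the TMM-normalized size of the library) at 0 h, 23.4 to 27.1 CPM at 2 h and 2.94 to 3.54 CPM at 24 h. Total counts were 25852711 to 27102318 per library. Replicate 3 of 24 h stood apart, with a chi-square per degree of freedom of 77.7 and 85.4 against the other 24 h libraries where other pairs of the same time had 2.81 to 16.5, and 3.18% of its counts came from ribosomal protein genes, against 4.99% and 5.29% in replicates 1 and 2. The 12 T cell markers were all at 1 CPM or more in each time group, here and for the other markers in CPM on library totals. Of the 6 B cell markers Cd79b, Ms4a1 and Pax5 were at 0 in every library, and Ighm, at 70.8 to 146.2 CPM over the libraries, gave nearly the whole sum of the list, which came to 70.9 to 77.5 CPM in 0 h libraries, 138.0 to 146.3 CPM in 8 h ones and 89.7 to 103.5 CPM in 24 h ones. Of the 8 myeloid markers Lyz2, S100a8 and S100a9 were at 0 in every library, and the list summed to 8.74 to 12.02 CPM up to 4 h and to 27.9 to 37.2 CPM at 24 h. Most of that rise was in Itgam, at 2.14 to 2.58 CPM in 0 h libraries and 21.6 to 25.5 CPM in 24 h ones. Csf1r was at 6.3 to 8.4 CPM in 0 h libraries and 5.3 to 8.4 CPM in 24 h ones. Of the 6 fibroblast and endothelial markers Col3a1, Pdgfra and Cdh5 were at 0, and the list, nearly all of it Pecam1, summed to 130.8 to 161.3 CPM in 24 h libraries, against 51.4 to 55.3 CPM in 0 h ones. The part of these changes in the results was not tested. In bulk RNA fewer cells of a type and less RNA per cell cannot be told apart.

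The quasi-likelihood test of edgeR was run over 14485 genes, and a gene is called where its Benjamini-Hochberg adjusted p over all of them was under 0.01. Of the 10 genes 9 passed the filter on low counts. Over the whole time course 7 of these 9 were called, where 74.2% of all genes tested were called.

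The sequences around the start sites are shown for the genes that hold the C/EBP-ATF composite element, the kind of site that ATF4 and a C/EBP partner share. The letters searched were TGATGNAA on both strands, in the windows from 250 bases before to 50 bases after the RefSeq start (GRCm38.p6), and a window for each of the 10 genes was found. The letters were present in 4 of the 10 genes and in 3.97% of 32851 windows of the same length. The capitals mark the match, and each sequence is written 5′ to 3′ on the strand of the gene.
Chac1, chr2:119350992-119351141 (+): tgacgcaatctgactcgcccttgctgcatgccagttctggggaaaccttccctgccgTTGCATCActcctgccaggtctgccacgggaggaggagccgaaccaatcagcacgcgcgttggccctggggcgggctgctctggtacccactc
Atf3, chr1:191183425-191183454 (-): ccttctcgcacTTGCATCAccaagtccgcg
Trib3, chr2:152344028-152344057 (-): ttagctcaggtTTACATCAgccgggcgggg
Asns, chr6:7693214-7693243 (-): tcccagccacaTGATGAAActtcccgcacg
In Chac1 and Atf3 the match read TTGCATCA on the gene's strand, at bases -193 to -186 and -110 to -103 from the start. In Trib3 it read TTACATCA at bases 15 to 22, and in Asns it read TGATGAAA, at bases -23 to -16. The E-box letters CACGTG, a site of MYC and its relatives, were in none of the 10 genes' windows and in 7.15% of all windows. A match is a description of letters and not a measured site. The 4 genes with the match did not share a course: Asns fell, Chac1 and Trib3 were higher at 2 h, and Atf3 was near 0.

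Compared per length of transcript, in the deposited TPM at 0 h, Atf4 was the most abundant of the 10 genes at 414 ± 5.18 TPM (SD, n = 3). The deposited length of Atf4 was 1724 bases, where its exons in the GENCODE M21 annotation cover 2358 bases. For the other members the 2 lengths were the same, so the TPM of Atf4 compares with theirs less surely. Ddit4 at 100.6 ± 10.9 TPM and Atf5 at 94.9 ± 2.24 TPM did not differ beyond their spread. Asns followed at 61.5 ± 0.965 TPM and Ddit3 at 14.0 ± 1.36 TPM. Trib3 at 5.26 ± 0.487 TPM and Cebpb at 5.12 ± 0.952 TPM were again within their spread. Sesn2 was at 2.65 ± 0.158 TPM, Chac1 at 1.01 ± 0.270 TPM and Atf3 at 0.0638 ± 0.0553 TPM. At 24 h the order had changed, with Ddit4 at 482.6 ± 71.5 TPM above Atf4 at 248.1 ± 3.58 TPM, and Ddit3 at 40.8 ± 1.77 TPM above Asns at 12.5 ± 0.892 TPM.

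**Figure D1:**
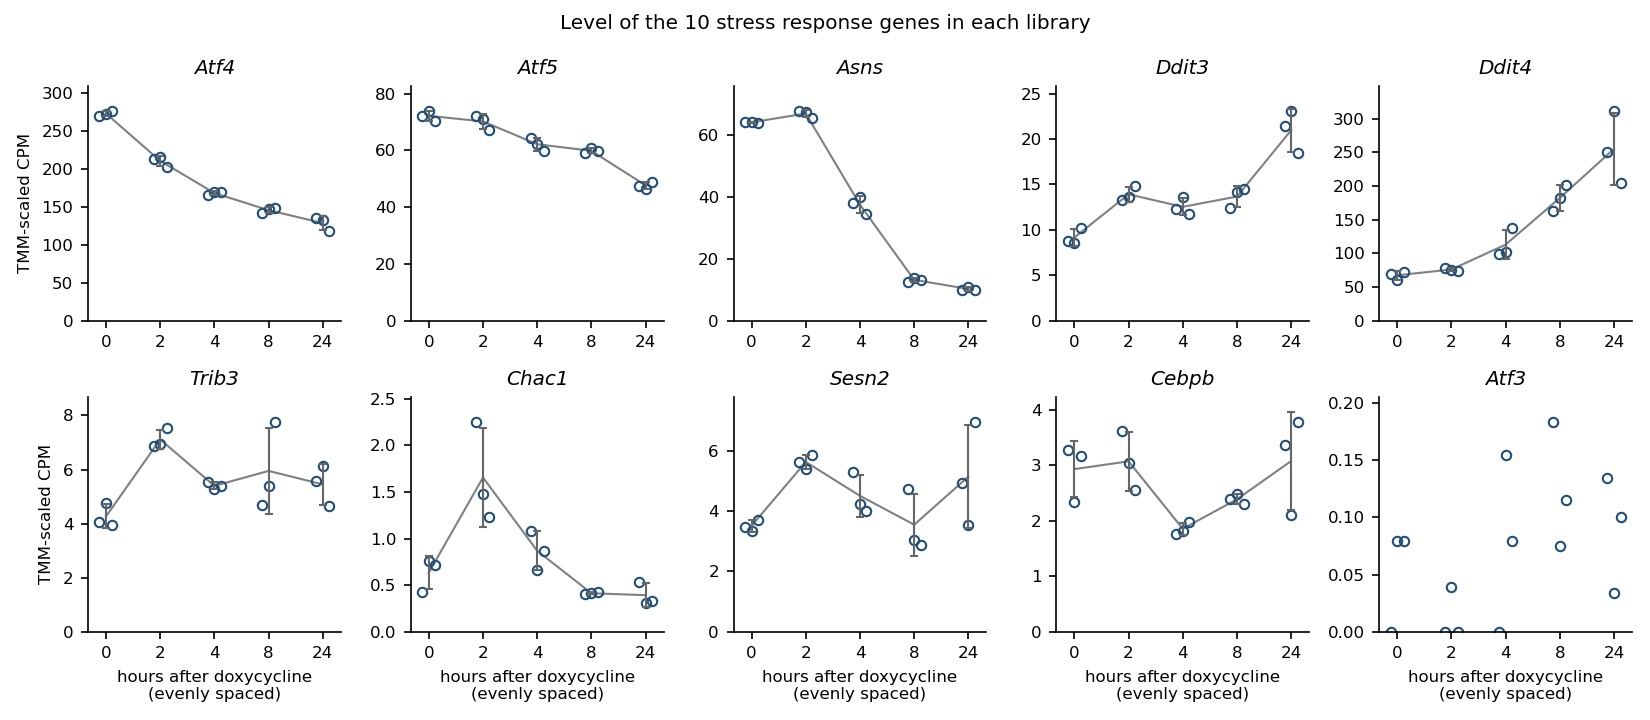
Level of each of the 10 genes in TMM-scaled CPM (vertical axes, each starting at 0) against hours of doxycycline (horizontal axes, with even spacing). Each open circle is 1 library, and the grey line joins the means, with bars of ± 1 SD over 3 libraries, left out for Atf3. Means of Atf4 are 272.4 CPM at 0 h and 128.2 CPM at 24 h, and those of Asns 64.2 and 10.2 CPM, while Ddit4 reaches 255.4 CPM at 24 h.

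Atf4 (ENSMUSG00000042406.7, GRCm38 chr15:80255184-80257541, plus strand), which encodes the transcription factor at the center of the response, fell at each later time. The libraries of 0 h held 269.3, 272.4 and 275.6 CPM, those of 2 h 213.0, 215.1 and 202.4, those of 4 h 164.7, 169.2 and 169.5, those of 8 h 141.3, 146.2 and 148.2, and those of 24 h 134.5, 132.4 and 117.7 CPM. The libraries of each later time lay below those of the time before, with no overlap. Set against 0 h, the log2 fold changes of the 4 later times were -0.37, -0.70, -0.91 and -1.09, with standard errors of 0.0592 to 0.0599. The first of these had an adjusted p of 0.000249 and the last one of 2.57e-10 by edgeR, and more of the fall came before 4 h than after it. Against the time before, the step at 4 h was called (log2 fold change -0.32, adjusted p = 0.000607 from edgeR). The steps at 8 h and 24 h were not (-0.21 and -0.18, adjusted p = 0.0194 and 0.0195). The size at 24 h depends on the scale, since Atf4 was at 47.1% ± 3.38 of its 0 h mean in TMM-scaled CPM, 56.9% ± 3.06 on library totals and 59.9% ± 0.864 in TPM, and in TPM the mean at 24 h (248.1 TPM) was not below that at 8 h (226.1 TPM).

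Asns (ENSMUSG00000029752.12, chr6:7675169-7693254, minus strand), which makes asparagine from aspartate and glutamine, had the largest change of the 9 genes tested, and it was not called until 4 h. The libraries of 0 h held 64.2, 64.3 and 64.1 CPM and those of 2 h 67.8, 67.7 and 65.7 CPM. The 4 h libraries held 38.2, 39.9 and 34.5 CPM, those of 8 h 12.5, 13.9 and 13.1 CPM, and those of 24 h 9.85, 10.98 and 9.86 CPM. At 2 h the libraries all lay above those of 0 h, but by too little to be called (log2 fold change 0.06 with a standard error of 0.0683, edgeR adjusted p = 0.568). The log2 fold changes over 0 h then reached -0.77, -2.28 and -2.65 with 4, 8 and 24 h of doxycycline, and edgeR gave the first an adjusted p of 1.94e-07 and the last, with its standard error of 0.0754, one of 2.01e-13. Each step after 2 h was called by edgeR, with -0.84 for 4 h over 2 h (adjusted p = 2.3e-07), -1.51 for 8 h over 4 h (adjusted p = 3.28e-09) and -0.36 for 24 h over 8 h (adjusted p = 0.0011). The last of these was lost with library totals and where 8 h and 24 h alone were fitted (adjusted p up to 0.0471).

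Atf5 (ENSMUSG00000038539.15, chr7:44812256-44816658, minus strand), a bZIP factor related to ATF4 and, like it, controlled at translation, had smaller falls. The 0 h libraries held 72.2, 73.8 and 70.5 CPM, the 2 h ones 72.3, 71.1 and 67.3, the 4 h ones 64.5, 62.3 and 59.8, the 8 h ones 59.1, 60.8 and 59.6, and the 24 h ones 47.6, 46.5 and 48.8 CPM. The libraries at 2 h overlapped those at 0 h, and those at 4, 8 and 24 h lay below. The size of the fall at 24 h depends on the scale. Atf5 was then at 66.0% of its 0 h mean in TMM-scaled CPM, 79.9% on library totals and 84.4% in TPM. In TPM no further fall was seen after 4 h, with means of 80.1, 80.6 and 80.2 TPM at 4, 8 and 24 h. The 24 h libraries ranged from 74.2 to 89.9 TPM. The 24 h log2 fold change of -0.60 had a standard error of 0.0564 and an edgeR adjusted p of 1.41e-07, and was called under every alternative run. The 4 h and 8 h ones were -0.21 and -0.27 (edgeR adjusted p = 0.00488 and 0.000646), and both calls were lost with library totals or upper-quartile factors. The call at 4 h was also lost without the low-count filter, without any 1 of the 0 h libraries and without 4 h replicate 3 (adjusted p up to 0.0901). Atf5 shares 82 exon bases with Nup62, a nuclear pore gene on the other strand, which was lower at 8 h and not called at the other times, and the same number with Il4i1, which was not called at any time.

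Ddit4 (ENSMUSG00000020108.4, chr10:59949669-59951834, minus strand), which encodes REDD1, an inhibitor of the growth kinase mTORC1, rose the most. The 0 h libraries held 69.2, 59.9 and 72.8 CPM, those of 2 h 78.3, 75.3 and 74.2, those of 4 h 99.4, 101.2 and 138.0, those of 8 h 162.6, 182.9 and 201.2, and those of 24 h 250.1, 311.4 and 204.6 CPM. Each time lay above the time before, with no overlap, although the 24 h libraries were spread widely. Over 0 h, the 2 h log2 fold change of 0.17 was not called by edgeR (adjusted p = 0.446), and those of the later times, 0.75, 1.44 and 1.92, were. The last had a standard error of 0.149 and an edgeR adjusted p of 1.48e-08, and without 24 h replicate 3 it was 2.06. The steps at 4 h against 2 h (0.57, adjusted p = 0.00712) and at 8 h against 4 h (0.69, adjusted p = 0.00283) were called, while 24 h against 8 h was 0.49 and just missed the threshold (adjusted p = 0.0104 from edgeR). The 4 h step was lost in 12 of 23 alternatives, 10 of them leaving out 1 library, and the 8 h step when 4 h replicate 1, 4 h replicate 2, 8 h replicate 2 or 8 h replicate 3 was left out.

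Ddit3 (ENSMUSG00000025408.15, chr10:127290774-127296288, plus strand), which encodes CHOP, a C/EBP-related factor tied to death under lasting stress, rose in 2 steps. The 0 h libraries held 8.74, 8.55 and 10.2 CPM, the 2 h ones 13.3, 13.6 and 14.9, the 4 h ones 12.3, 13.6 and 11.8, the 8 h ones 12.4, 14.2 and 14.5, and the 24 h ones 21.4, 23.1 and 18.4 CPM. The libraries at 2, 4 and 8 h overlapped one another and lay above 0 h, and those at 24 h lay above them all. Its log2 fold changes over 0 h were 0.60, 0.45, 0.58 and 1.196 for 2, 4, 8 and 24 h, with standard errors of 0.107 to 0.109 and edgeR adjusted p of 0.00076, 0.0028, 0.000275 and 7.93e-08. The 4 h call did not hold when 0 h replicate 1, 0 h replicate 2, 4 h replicate 1 or 4 h replicate 2 was left out (adjusted p up to 0.034). The step at 24 h against 8 h was 0.62 (adjusted p = 0.000185 from edgeR), and was not called where 8 h and 24 h alone were fitted (adjusted p = 0.0115). Ddit3 shares 68 exon bases with Mars, a methionyl-tRNA synthetase gene on the other strand, which fell at 4, 8 and 24 h, and 105 with a second annotated Ddit3 gene that was not used here. Whether the counting used the strand is not given in the sources read.

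**Figure D2:**
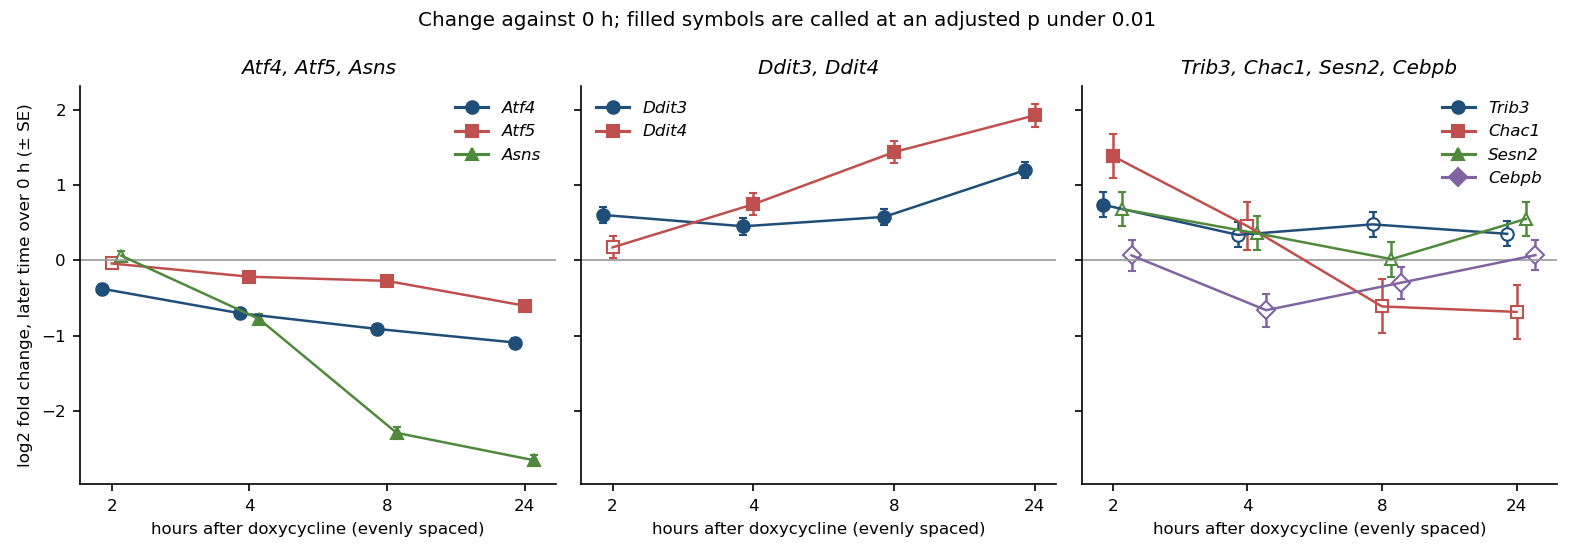
Log2 fold change of the 9 tested genes at 2, 4, 8 and 24 h over 0 h (vertical axis, with bars of 1 standard error; horizontal axis evenly spaced), from the edgeR fit. Filled symbols are called at an adjusted p under 0.01: Asns reaches -2.65 and Ddit4 1.92 at 24 h, while Chac1 is at 1.38 at 2 h and -0.68 at 24 h.

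Trib3 (ENSMUSG00000032715.9, chr2:152337422-152344032, minus strand), a pseudokinase that is induced by ATF4 and CHOP and restrains them, was higher at 2 h. It was at 6.86, 6.94 and 7.53 CPM at 2 h, against 4.06, 4.77 and 3.96 CPM at 0 h, with no overlap (log2 fold change 0.74 ± 0.164 SE, edgeR adjusted p = 0.00355). The call was lost in 5 of the 15 fits that left out 1 library, those without 0 h replicate 1 or 3 or any 1 of the 2 h libraries (adjusted p up to 0.0205). The 4 h libraries held 5.53, 5.27 and 5.38 CPM, those of 8 h 4.69, 5.40 and 7.75, and those of 24 h 5.58, 6.12 and 4.64 CPM. None of these times was called against 0 h (log2 fold changes 0.34, 0.48 and 0.35, adjusted p = 0.102, 0.0198 and 0.0685 from edgeR), although with library totals 8 h and 24 h were (log2 fold changes 0.58 and 0.63). The 8 h change was also called with upper-quartile factors (0.64), without 8 h replicate 1 (0.58) and without 24 h replicate 3 (0.48), and it was 0.20 without 8 h replicate 3 (adjusted p = 0.258 from edgeR). Over the whole course the adjusted p was 0.00938, close to the threshold.

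Chac1 (ENSMUSG00000027313.3, chr2:119351229-119354381, plus strand), which breaks down glutathione, was the least abundant gene tested and rose at 2 h. Its counts were 59, 38 and 32 at 2 h, against 11, 19 and 18 at 0 h, or 2.25, 1.48 and 1.24 CPM against 0.429, 0.756 and 0.713 CPM (log2 fold change 1.38 ± 0.298 SE, edgeR adjusted p = 0.00291). The call was lost without 0 h replicate 1 or 2 h replicate 1 (adjusted p up to 0.0227). The 4 h libraries had 28, 17 and 22 counts, those of 8 h 11, 11 and 11, and those of 24 h 16, 9 and 10. The log2 fold changes there were 0.46, -0.61 and -0.68 against 0 h, and none was called (adjusted p = 0.25, 0.15 and 0.0993 from edgeR). Between neighboring times its log2 fold change was -0.93 for 4 h over 2 h and -1.07 for 8 h over 4 h, with libraries that did not overlap but adjusted p of 0.0201 and 0.0352.

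Sesn2 (ENSMUSG00000028893.8, chr4:132492032-132510501, minus strand), a leucine sensor that restrains mTORC1, lay above 0 h at 2 h in all 3 libraries, at 5.64, 5.38 and 5.87 CPM against 3.47, 3.34 and 3.72 CPM. It was not called there (log2 fold change 0.68 ± 0.223 SE, edgeR adjusted p = 0.0362). It was called without the low-count filter, where 0 h and 2 h alone were fitted, and without 24 h replicate 3, and its adjusted p ranged over the alternatives from 3.09e-05 to 0.109. At 24 h its libraries were spread from 3.55 to 6.95 CPM, the highest being replicate 3, with a log2 fold change of 0.55 (adjusted p = 0.038 from edgeR) that was 0.27 without that library (adjusted p = 0.206). Over the whole course its adjusted p was 0.0295.

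Cebpb (ENSMUSG00000056501.3, chr2:167688915-167690418, plus strand), a C/EBP factor that can pair with ATF4, had its lowest level at 4 h. It was at 1.77, 1.82 and 1.98 CPM at 4 h, against 3.28, 2.35 and 3.17 CPM at 0 h, with no overlap and no call (log2 fold change -0.66 ± 0.216 SE, edgeR adjusted p = 0.0191). DESeq2, the fit without the low-count filter, the fit of 0 h and 4 h alone and the fits without 24 h replicate 2 or 3 called it. Over the whole course its adjusted p was 0.0221. Cebpb shares 312 of its 1504 exon bases with Tmem189 on the other strand, which was not called at any time.

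Atf3 (ENSMUSG00000026628.13, chr1:191170296-191218039, minus strand), a stress-induced bZIP factor, had 0 to 5 counts per library and was removed by the filter on low counts, so its changes were not tested. The 0 h libraries had 0, 2 and 2 counts, those of 2 h 0, 1 and 0, those of 4 h 0, 4 and 2, those of 8 h 5, 2 and 3, and those of 24 h 4, 1 and 3. The 8 h libraries all lay above those of 2 h, and above those of 0 h on library totals but not on TMM-scaled CPM. The 3 libraries of a time summed to 4, 1, 6, 10 and 8 counts for 0, 2, 4, 8 and 24 h. A count of 0 allows up to 3 counts, or 0.111 to 0.116 CPM on library totals in these libraries.

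Read against all genes, the counts of members called stood as follows. At 2 h 3 of the 9 tested were higher (Ddit3, Trib3 and Chac1) where 6.6% of all genes were, and 1 was lower (Atf4) where 8.59% were. At 4 h 2 were higher and 3 lower, where 18.1% and 19.9% of all genes were. At 8 h the same 5 genes were called, 2 higher and 3 lower, where 25.3% and 25.1% were. At 24 h it was again these 5, where 30.7% of all genes were higher and 28.1% lower. At these late times the share of members called is near the background. Between neighboring times, at 4 h against 2 h 1 was higher and 2 lower (background 7.72% and 13%). At 8 h against 4 h 1 was higher and 1 lower (5.73% and 6.97%), and at 24 h against 8 h 1 was higher and 2 lower (20.8% and 17.3%). The median log2 fold change of the 9 genes was 0.17, 0.34, -0.27 and 0.07 at 2, 4, 8 and 24 h, beside 0.01, 0.08, 0.09 and 0.07 over all genes tested.

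The scale matters at the late times. Scaling by library totals shifted the median of all genes by 0.11 at 8 h and 0.27 at 24 h on the log2 scale and made 69% of the calls at 24 h higher, where TMM gave 52.2%. With library totals 4 of the 9 members were called higher at 24 h, Trib3 and Sesn2 besides Ddit3 and Ddit4, and 3 lower. The directions of Atf4, Atf5, Asns, Ddit3 and Ddit4 at 24 h held on each scale tried.

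**Figure D3:**
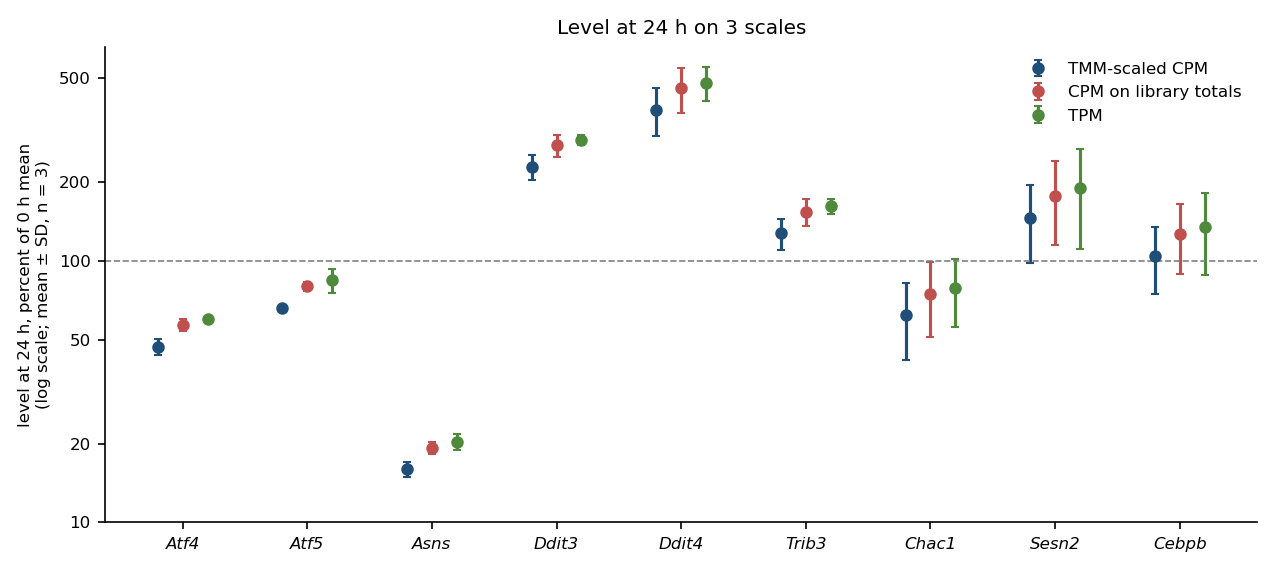
Level of the 9 tested genes at 24 h as a percent of the 0 h mean (vertical axis, log scale), as mean ± SD of 3 libraries, on TMM-scaled CPM, CPM on library totals and TPM. Atf4 lies at 47.1%, 56.9% and 59.9% and Asns at 15.9%, 19.3% and 20.3% on these scales, and Ddit4 at 379.4%, 458.1% and 479.5%.

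Other genes that ATF4 is known to turn on were mostly lower from 4 h on. Of 59 such genes 52 were tested. Those higher numbered 6, 7, 11 and 11 for 2, 4, 8 and 24 h over 0 h, and those lower 12, 34, 35 and 36. Their median log2 fold change was -0.14, -0.57, -0.92 and -1.05 at these times. Of all genes tested, 6.6%, 18.1%, 25.3% and 30.7% were higher at these times, and 8.59%, 19.9%, 25.1% and 28.1% were lower. The same shares are the background for the counts of each list that follows.

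Enzymes of amino acid and one-carbon synthesis, the group Asns works with, included 0, 8, 10 and 12 lower genes of 12 tested for 2, 4, 8 and 24 h, and 0, 1, 1 and 0 higher ones. Shmt2, the mitochondrial serine hydroxymethyltransferase, was at 72.6 CPM at 24 h against 596.9 CPM at 0 h (log2 fold change -3.04). Phgdh, the first enzyme of serine synthesis, was at 78.1 against 473.8 CPM (-2.60), and Pycr1, of proline synthesis, was at 5.65 against 27.7 CPM (-2.29). Pck2, a mitochondrial PEP carboxykinase, was the 1 gene higher at 4 h and at 8 h (0.55 and 0.49), and was lower at 24 h (-0.61).

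Amino acid transporters were called from 2 h on. Of 9 tested, 5, 7, 6 and 7 were lower over the 4 times and 1, 1, 2 and 1 higher. Slc7a5, which with Slc3a2 imports large neutral amino acids, changed by -0.63 at 2 h and by -2.45 at 24 h on the log2 scale. Slc7a1, an arginine and lysine importer, was at -0.62 at 2 h and -2.92 at 4 h. Slc7a11, which imports cystine for glutathione, went the other way and was higher at each time (0.65, 0.39, 0.68 and 0.38).

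Of the 12 aminoacyl-tRNA synthetases and the tRNA exporter Xpot, 3, 11, 12 and 12 were lower over the 4 times and 1, 0, 0 and 0 higher. Xpot was at -2.16 at 24 h, Iars at -2.02 and Eprs at -1.86. The 1 gene higher at 2 h was Cars (0.27), the cysteinyl-tRNA synthetase.

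The remaining targets, stress effectors, went both ways. Of 18 tested, 4, 5, 8 and 10 were higher over the 4 times and 4, 8, 7 and 5 lower. Eif4ebp1, a repressor of cap-dependent translation, was at -2.35 at 24 h, and Trib1, a relative of Trib3, was at -1.17. Vldlr, a lipoprotein receptor, was at 1.28, Dnajc3, a chaperone that inhibits the eIF2 kinase PERK, at 1.13, and Ppp1r15a, which encodes GADD34 and brings a phosphatase to eIF2, at 1.05. Stc2, a secreted stress glycoprotein, was at -2.82 at 4 h and -0.47 at 24 h. Vegfa, an angiogenic factor that hypoxia also induces, was lower at 4 h (-1.75) and higher at 24 h (0.55).

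**Figure D4:**
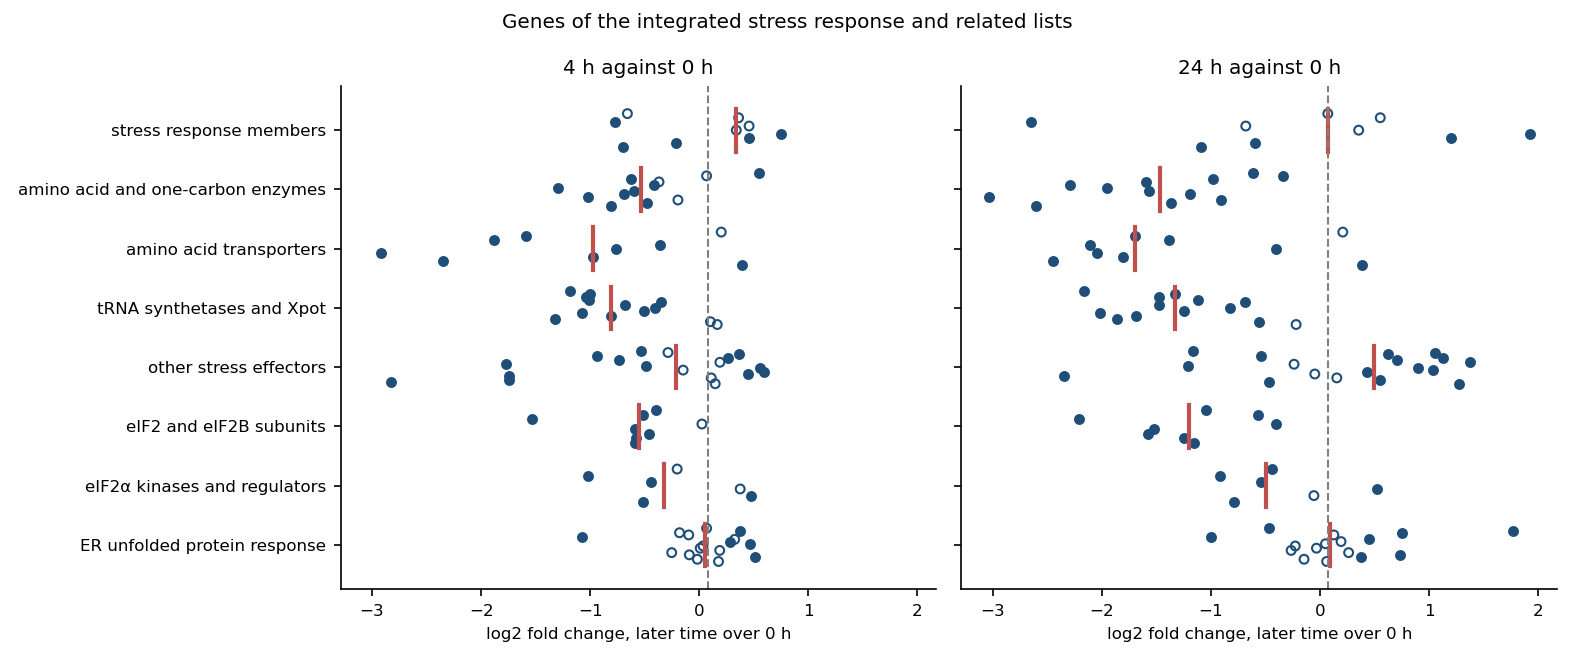
Log2 fold change over 0 h at 4 h (left) and 24 h (right) of the tested genes of 8 lists (rows), each point 1 gene. Filled points are called at an adjusted p under 0.01, red bars are list medians and the dashed line is the median of all genes tested. The 12 amino acid and one-carbon enzymes lie below 0 at 24 h, and the other stress effectors lie on both sides, with 10 called higher and 5 lower.

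Upstream of ATF4, the subunits of eIF2 and of its exchange factor eIF2B had 2, 7, 7 and 8 lower genes of 8 tested over the 4 times and 0 higher ones at each. Eif2b3 had the largest of these changes at 24 h, with 13.9 CPM against 64.2 CPM at 0 h (log2 fold change -2.21), followed by Eif2s3x (-1.57), Eif2b1 (-1.52) and Eif2s2 (-1.25). Of the 6 genes of the kinases and their regulators, 1, 1, 2 and 1 were higher over the 4 times and 1, 3, 3 and 4 lower. Gcn1l1, one of the regulators, had the largest change of this list at 4 h (-1.02) and at 8 h (-1.59), both called. At 2 h it was at -0.41, not called. Eif2ak3, which encodes PERK, the kinase of endoplasmic reticulum stress, was higher at 8 h (0.47) and at 24 h (0.52). Eif2ak1, which encodes the heme-regulated kinase, was lower at each time (-0.79 at 24 h), and Eif2ak4, which encodes GCN2, the kinase of amino acid shortage, was lower from 4 h on (-0.54 at 24 h). Eif2ak2, which encodes the double-stranded RNA kinase PKR, was higher at 2, 4 and 8 h (0.59 at 2 h) and was at -0.06 at 24 h, not called. Of the 5 eIF2 phosphatase subunits 1, 2, 2 and 1 were higher over the 4 times and 0 lower at each.

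Genes that other stress pathways induce were set beside them. Of 16 genes of the endoplasmic reticulum unfolded protein response, 0, 4, 8 and 5 were higher over the 4 times and 3, 1, 1 and 2 lower. Edem1, which helps clear misfolded glycoproteins, was at 1138 CPM at 24 h against 334.8 CPM at 0 h (log2 fold change 1.76), while Hspa5, the chaperone BiP, was higher at 8 h (0.56) and was at 0.06 at 24 h. Hyou1, of the same list, was lower at 2 h (-0.64) and at 8 h (-0.98). Of 9 tested hypoxia targets, a group that Ddit4 is also known in, 3, 1, 7 and 8 were higher over the 4 times and 2, 3, 1 and 1 lower. Bnip3, a mitophagy receptor, was at 1.63 at 2 h and 1.90 at 24 h. Of 7 tested glucocorticoid targets, a response that Ddit4 is also known to belong to, 3, 4, 4 and 4 were higher over the 4 times and 1, 2, 0 and 1 lower, with Dusp1, a MAP kinase phosphatase, at 2.26 and Tsc22d3, which encodes GILZ, at 1.05 at 24 h. Fkbp5, of the same list, was the 1 lower at 2 h (-0.50). Of 9 tested p53 targets 3, 5, 4 and 3 were higher over the 4 times and 2, 3, 4 and 3 lower. Of all genes tested, 6.6%, 18.1%, 25.3% and 30.7% were higher over the 4 times, and 8.59%, 19.9%, 25.1% and 28.1% lower. At 24 h the counts of p53 targets were near these shares, and so was the count of unfolded protein response genes higher (5 of 16). The part of these pathways in the course of Ddit4 and Sesn2 was not tested.

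Downstream of Ddit4 and Sesn2, of 16 genes of mTORC1 and its upstream regulators 0, 6, 9 and 9 were lower over the 4 times and 0, 1, 1 and 1 higher. Nprl2, a subunit of the GATOR1 inhibitor of mTORC1, was the 1 gene higher (0.72 at 24 h), and Akt1s1, which encodes the mTORC1 inhibitor PRAS40, was at -1.55 at 24 h. Of the members' relatives, Sesn3 was higher at each time (0.93 at 4 h), Sesn1 was higher at 4 h (0.36) and lower at 24 h (-0.62), and Chac2 was not called. Trib2, a relative of Trib3, was lower at 2 h (-0.32) and at 4 h, and was not called at 8 h (-0.09). Of 12 tested ATF, CREB and C/EBP relatives 3, 6, 4 and 5 were higher over the 4 times and 2, 2, 2 and 1 lower. Cebpg, a C/EBP partner of ATF4, was higher at each time (0.31, 0.36, 0.41 and 0.62).

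Over the 15 libraries, the protein-coding genes whose log2 CPM followed Atf4 most closely among 11099 were Ptges3, a co-chaperone of HSP90, with a Pearson r of 0.996, Exosc7, a subunit of the RNA exosome, with 0.993, and Prmt7, an arginine methyltransferase, with 0.993. Those closest to Asns were G6pdx, glucose-6-phosphate dehydrogenase, with 0.996, Nkain1 with 0.996, and Shmt2 with 0.994. Nkain1 had a mean of 4.46 CPM at 0 h and 0 CPM at 24 h, so its log2 CPM at 24 h is set by the pseudocount. The libraries share the time course, so the r values describe likeness of course over 5 times and no more.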

How the data were processed

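PolyA RNA was sequenced from mouse T-ALL cells at 5 times after doxycycline, in 3 libraries each. For each library the authors deposited raw counts per gene and TPM, the length-scaled values, of 53380 features. Per the labels, cutadapt 1.16, STAR 2.5.4b, featureCounts and the build mm10 are credited to the submitters' processing notes. The annotation release and strand setting were not stated. Counts share reads between overlapping genes only as that setting allows. Features were matched to GENCODE M21 by gene ID without version (53274 of 53379 mouse IDs).

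Counts were fitted with edgeR 4.0.16 in R 4.3.3 (filterByExpr on the 5 groups, TMM, glmQLFit with 1 mean per time and no replicate block, glmQLFTest), adjusted by Benjamini-Hochberg over the 14485 genes tested and called under 0.01. CPM are on TMM-scaled totals of the tested genes, and log2 CPM used a pseudocount of 2. Standard errors of edgeR log2 fold changes were derived from the test, as the absolute log2 fold change over the square root of its F. Total counts were 25852711 to 27102318. The fit was tested on simulated data, and no result of that test is reported here.

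The alternatives were RLE, library totals, upper-quartile factors, no low-count filter, at least 10 counts in every library, an adjusted p under 0.05, a replicate block, a fit of only the times compared, DESeq2 1.42.0 and leaving out each library. Levels were also set on TPM and on unscaled CPM. Genes named were the 10 members and, per list and contrast, the up to 4 called genes with the largest change, or any where 5 or fewer were called. The genes named beyond this rule (Hspa5, Dnajc3, Cebpg at 4 h and the overlapping genes) were chosen after their values were seen. The members and lists were chosen with earlier results of these data known. The promoter motifs were chosen with the windows at hand. The deposited FPKM were not used here.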

Additional observations from a re-analysis of the deposited data

How the results depend on the processing

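Of 1442 comparisons of a single member's change under another setting, 1337 kept their direction and their side of the threshold, 41 lost a call, 40 gained one and 24 changed sign, and of 551 such counts of called genes 499 stayed within 1.5 times of the count reported. Calls of Atf4 against 0 h at each time, of Asns and Ddit4 at 4, 8 and 24 h, of Ddit3 at 2, 8 and 24 h and of Atf5 at 24 h held under every alternative run. The cause of the changes below was not tested.

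The changes of sign were in values near 0 that were not called. Sesn2 at 8 h against 0 h (log2 fold change 0.02) was -0.0183 with RLE, -0.0033 without the low-count filter, -0.0076 with only those times fitted and -0.0193 with DESeq2, and -0.2892 to 0.1025 without 1 library. With library totals Atf5 was 0.0062 at 2 h against 0 h and 0.0073 at 8 h against 4 h (0.0043 with upper-quartile factors), and at 24 h against 8 h Trib3 was 0.0434 and Chac1 0.0924. Without 1 library, Cebpb was -0.0694 to 0.1922 at 2 h and -0.1019 to 0.2804 at 24 h against 0 h, Trib3 -0.1002 to 0.2829 at 8 h against 4 h and -0.2669 to 0.1158 at 24 h against 8 h, and Chac1 -0.3669 to 0.077 at 24 h against 8 h.

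Counts of members called moved as follows. With library totals 4 were higher at 24 h against 0 h, and 2 were higher and 0 lower at 24 h against 8 h. At 24 h against 8 h 2 were higher without the low-count filter, with at least 10 counts in every library, with an adjusted p under 0.05 and with DESeq2. At 4 h against 2 h 0 were higher with at least 10 counts in every library, 5 were lower with an adjusted p under 0.05, and 4 were lower with DESeq2 and with only those times fitted. At 8 h against 4 h 3 were lower with an adjusted p under 0.05 and 2 with DESeq2. Fitting only the times compared gave 5 higher at 2 h against 0 h, and 0 higher and 0 lower at 24 h against 8 h. Of the other ATF4 targets at 2 h, 3 were higher without the low-count filter, 10 were higher and 25 lower with only those times fitted, and 21 were lower with DESeq2. Without 1 library, members higher were 1 to 4 at 2 h and 1 to 2 at 4 h against 0 h, 0 to 1 at 4 h against 2 h, 0 to 1 at 8 h against 4 h and 1 to 2 at 24 h against 8 h. Members lower were 2 to 5 at 4 h against 2 h and 1 to 2 at 8 h against 4 h, each highest without 24 h replicate 3. Other targets higher were 3 to 9 at 2 h and 3 to 8 at 4 h (3 without 4 h replicate 3), and lower 8 to 20 at 2 h (20 without 24 h replicate 3).

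The replicate number as a block left 0 members higher at 4 h against 2 h, where 1 was called without it. The numbers are not shown to pair the libraries: same-numbered libraries correlated at -0.312 to 0.211 (median 0.025) in their deviations from the time means. Other-numbered libraries of different times correlated at -0.234 to 0.309 (median -0.009). Of the 15 libraries 9 correlated best with their own number, so pairing is not excluded either. The share of higher among calls at 2 h was 43.4% with TMM, 34% with RLE and 54.8% with library totals, at 4 h 47.7% with TMM and 59.7% with upper-quartile factors, at 8 h 50.2% with TMM, 59.9% on library totals and 63.5% by upper quartile, and at 24 h 52.2% with TMM, 69% on library totals and 61.3% by upper quartile. Depth limits Atf3 and Chac1 most.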
